A study of Mus musculus with 8 samples.

Results

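Broad peaks of the hedgehog transcription factors GLI1 and GLI2 were examined across the autosomes of female mouse embryonic stem cells. A broad peak is a peak of the deposited lists at least 3600 bp wide, and a broad region is the union of broad peaks that overlap by at least 1 bp between lists. The 4 lists held 1953 broad peaks among 165007 autosomal peaks. They merged into 1866 broad regions, out of 134568 regions formed by autosomal peaks of any width. The peaks were chosen by their measured width, so widths are given below as a description with no test. Comparisons rest on where peaks of the other lists lay.

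All cells were of the line F1-2.1, carried the reverse tetracycline transactivator (Tet-on) and held a stable transgene for GLI1-3xFLAG or GLI2-3xFLAG under tetracycline response elements. They were kept on irradiated fibroblast feeders with LIF and hygromycin, and received 1 µg/mL doxycycline and 100 nM SAG, an agonist of Smoothened, for 72 hours before harvest on day 0. Anti-FLAG ChIP gave 2 replicate libraries per factor, called biological in the labels, and peaks were listed for each library separately, on mm9. Both factors were thus expressed from a transgene, and no untagged cells were analysed here. Per the labels, GLI1 peaks passed a cutoff of 1e-4 and GLI2 peaks one of 1e-5, and the caller ran with s = 50 in replicate 1 and s = 20 in replicate 2. Factor and cutoff cannot be told apart, nor replicate number and s. Sequencing depth is unknown, since the files hold peaks and no reads.

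GLI proteins bind DNA through zinc fingers that read a short GC-rich motif, and they carry the Hedgehog signal from Smoothened to target genes. GLI2 acts as the main activator when the pathway switches on, and GLI1 is both an activator and a target gene of the pathway. A factor that reads a short motif usually gives narrow peaks, whereas wide stretches of enrichment are better known from histone marks. Genes, promoters and motifs at the broad regions were not analysed here, because the gene and promoter tables at hand were of another genome build.

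Peak widths formed separate groups in every list, and the broad peaks were the far side of the second one. Peaks of 1000 to 1800 bp, called ordinary below, made up 95.2% of GLI1 replicate 1, 94.7% of GLI1 replicate 2, 96.7% of GLI2 replicate 1 and 95.8% of GLI2 replicate 2. Counts then dropped to a low of 125 peaks at 2400 bp in GLI1 replicate 1, 99 at 2200 bp in GLI1 replicate 2, 46 at 2400 bp in GLI2 replicate 1 and 71 at 2400 bp in GLI2 replicate 2. Beyond this low the counts climbed again in all 4 lists. The second high lay at 3200 bp in GLI1 replicate 1 (202 peaks) and in GLI2 replicate 2 (291), and at 3000 bp in GLI1 replicate 2 (407) and GLI2 replicate 1 (92). No gap under 1200 bp separated neighbouring peaks of a list. The threshold of 3600 bp fell on the descending side of the second high, with 170, 386, 65 and 239 peaks just outside it at 3400 bp and 156, 266, 58 and 198 just inside it at 3600 bp, in GLI1 replicates 1 and 2 and GLI2 replicates 1 and 2.

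**Figure D1:**
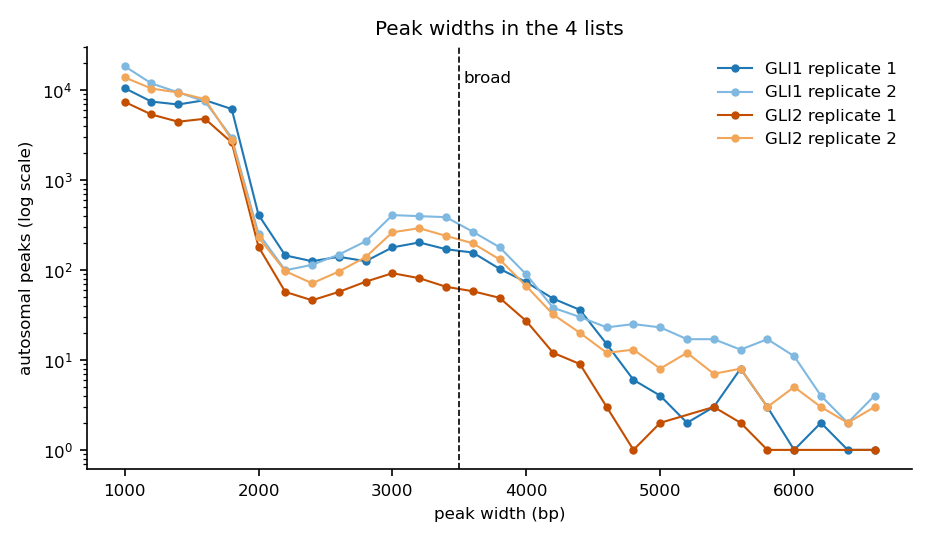
Number of autosomal peaks (log scale) by peak width in bp for the 4 lists, with the threshold for broad peaks as a dashed line; widths over 6600 bp are not drawn. Each list has its main group at 1000 to 1800 bp, a low between 2200 and 2400 bp and a second high at 3000 or 3200 bp.

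Broad peaks numbered 473 in GLI1 replicate 1 (1.16% of the list), 775 in GLI1 replicate 2 (1.47%), 174 in GLI2 replicate 1 (0.686%) and 531 in GLI2 replicate 2 (1.15%). They held 3.44, 4.54, 2.52 and 3.45% of the bases covered by each list in that order. Replicate 2 had more broad peaks than replicate 1 for both factors, and GLI1 more than GLI2 within each replicate number. Median width was 3800 bp in all 4 lists. Of the 1866 broad regions, 1559 (83.5%) were at most 4400 bp wide and 10 were 10 kb or wider, the widest reaching 105 kb. A total of 1815 regions consisted of a single broad peak.

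In broad peaks of 3600 to 4400 bp, the middle was covered less often by peaks of the other lists than the parts to either side of it. For each list, the share of peaks covered by a peak of any of the other 3 lists was read every 200 bp from the peak centre. Broad peaks of 3600 to 4400 bp in GLI1 replicate 1 were covered in 10.6% of cases at the centre, in 38.5% at 1200 bp to the left and in 32.9% at 1000 bp to the right. In GLI1 replicate 2 the shares were 8.31% at the centre, 27.1% at 1200 bp to the left and 25.1% at 1200 bp to the right. GLI2 replicate 1 had 18.1% at the centre, 40.6% at 1200 bp to the left and 51.0% at 1000 bp to the right. GLI2 replicate 2 had 11.6% at the centre, 42.5% at 1400 bp to the left and 40.3% at 1200 bp to the right. All 4 lists thus showed a high on each side and a low between them. The level 4000 bp or more away from the centre was 7.75, 8.47, 11.5 and 7.66% in the same order, below the central share in 3 lists and slightly above it in GLI1 replicate 2. Ordinary peaks had a single high at the centre, of 29.1, 27.5, 44.9 and 34.1%.

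**Figure D2:**
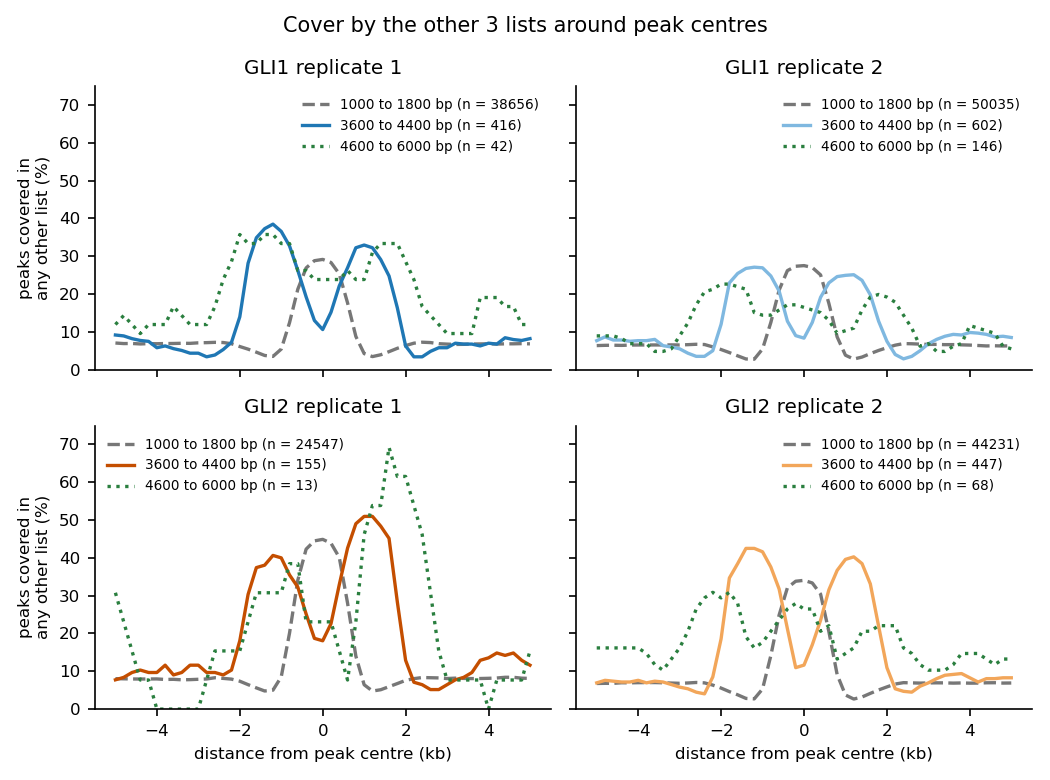
Share of peaks (%) covered by a peak of any of the other 3 lists, against distance from the peak centre in kb, 1 panel per list, for ordinary peaks (dashed), peaks of 3600 to 4400 bp (solid) and peaks of 4600 to 6000 bp (dotted). Ordinary peaks have their high at the centre, and peaks of 3600 to 4400 bp have a high about 1200 bp to either side of a central low.

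The same contrast was measured at fixed positions. Each peak was divided into 3 equal parts, and its midpoint was compared with the centres of the end parts, here called the outer positions, which lie farther from the midpoint in broad than in ordinary peaks. Averaged over the other 3 lists, 6.62% of the midpoints and 16.5% of the outer positions of GLI1 replicate 1 broad peaks lay in a peak. In GLI1 replicate 2 the values were 4.47 and 11.2%, in GLI2 replicate 1 they were 10.5 and 22.7%, and in GLI2 replicate 2 they were 6.97 and 17.5%. The midpoint was lower than the outer positions in 12 of 12 ordered pairs of lists, and for ordinary peaks it was higher in 12 of 12. Midpoint minus outer positions came to -9.85 ± 2.27 percentage points for broad peaks and 1.79 ± 0.556 for ordinary peaks (SD, n = 4 lists). Peaks of 3000 to 3400 bp, just under the threshold, also had a lower midpoint in 12 of 12 pairs, by -7.02 ± 1.19 points (SD, n = 4 lists), so the trait was not limited to broad peaks. The difference between broad and ordinary peaks was -11.6 ± 2.80 points, negative in 4 of 4 lists and larger than their spread (two-sided exact sign-flip permutation p = 0.125, the smallest that 4 lists allow). Ordered pairs share lists, so 12 pairs are not 12 independent comparisons. Nor are the 4 list values independent, since each is a mean over the other 3 lists. This measure was also chosen after the profiles of the same lists were seen. For both reasons the permutation cannot decide the difference, and the SD is no spread between independent samples. With a width of at least 5000 bp it turned to 1.17 points, and without peaks over 4400 bp it was -11.2 points.

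At their midpoint, broad peaks recurred less than peaks of the list as a whole, in 12 of 12 ordered pairs of lists. Of the 473 broad peaks of GLI1 replicate 1, 41 (8.67%, 95% exact interval 6.29 to 11.6) had their midpoint in a GLI1 replicate 2 peak, against 19.6% of all peaks of that list. In the reverse direction 61 of 775 did so (7.87%, 6.07 to 10.0), against 14.9%. Of the 174 broad peaks of GLI2 replicate 1, 31 (17.8%, 12.4 to 24.3) had their midpoint in a GLI2 replicate 2 peak, against 33.8%. In the reverse direction the count was 64 of 531 (12.1%, 9.41 to 15.1), against 18.1%. The middle of broad peaks was a low in the profiles, so a low is set here against the high of ordinary peaks. Outer positions of broad peaks, also 1 base each, lay in a peak of the other replicate in 25.1, 14.7, 38.2 and 24.4% of cases on average. The order is GLI1 replicates 1 and 2, then GLI2 replicates 1 and 2. These shares were above the midpoint shares of all peaks except in GLI1 replicate 2. With a width of at least 5000 bp the order at the midpoint turned in 10 of 12 pairs, where the share exceeded that of all peaks. The means became 22.1% for GLI1 and 41.1% for GLI2, from 15 to 125 peaks per list. A few places weigh heavily here. Of the 36 such peaks of GLI1 replicate 1, 6 and 4 lay in the 2 regions of a chromosome 11 domain described below. All of these had their midpoint in a GLI2 replicate 1 peak, as did 16 of the 36. The shares at this width were not recomputed without the domain. Peaks of 1 list are not independent samples of the cells, and the exact intervals cover the counting of peaks only. For broad peaks of 3600 bp or more, the mean midpoint share in the other replicate was 8.27 ± 0.564% for GLI1 and 14.9 ± 4.08% for GLI2 (SD, n = 2 lists). The difference was -6.66 points, and the lists of the factors did not overlap (two-sided exact permutation p = 0.3333, the smallest possible with 2 against 2). GLI1 minus GLI2 was -9.15 points within replicate 1 and -4.18 within replicate 2. Midpoints of all peaks showed the same order, 17.2 ± 3.32% for GLI1 and 25.9 ± 11.1% for GLI2 (SD, n = 2, two-sided exact permutation p = 0.667). In both comparisons the 2 values of a factor come from 1 pair of lists read in both directions. They are not independent, so their SD is no spread between replicates and the permutations cannot decide the difference.

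GLI2 was also above GLI1 at the outer positions within each replicate number, in broad peaks as in all peaks. At least 1 of the outer positions lay in a peak of the other replicate for 200 of 473 broad peaks of GLI1 replicate 1 (42.3%) and for 198 of 775 of GLI1 replicate 2 (25.5%). For GLI2 it did so for 102 of 174 (58.6%) in replicate 1 and for 212 of 531 (39.9%) in replicate 2. Among all peaks the shares were 20.5 and 16.0% in GLI1 replicates 1 and 2, and 34.7 and 19.1% in GLI2 replicates 1 and 2. Both outer positions were covered far less often, in 37, 30, 31 and 47 broad peaks of the 4 lists in that order (7.82, 3.87, 17.8 and 8.85%). Among broad peaks covered at an outer position, coverage of a single side was thus the more frequent case in each list. A peak of the other replicate overlapped any base of 44.2, 29.4, 60.3 and 41.8% of broad peaks in that order. For all peaks these shares were 21.0, 16.2, 35.0 and 19.3%. A wide peak offers more positions to meet, so only the order of the factors, not the level, is compared with all peaks.

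In the lists of the other factor, broad peaks were met more rarely still. GLI1 replicate 1 midpoints lay in a GLI2 replicate 1 peak in 6.34% of cases (4.32 to 8.93), against 7.5% of all peaks of the list, and in a GLI2 replicate 2 peak in 4.86% (3.11 to 7.21), against 9.44%. For GLI1 replicate 2 the shares were 2.58% (1.58 to 3.96) against 5.13%, and 2.97% (1.89 to 4.42) against 13%. GLI2 replicate 1 midpoints lay in a GLI1 replicate 1 peak in 9.77% of cases (5.80 to 15.2) against 12.3%, and in a GLI1 replicate 2 peak in 4.02% (1.63 to 8.11) against 10.9%. For GLI2 replicate 2 they were 3.77% (2.32 to 5.76) against 8.36%, and 5.08% (3.38 to 7.31) against 15%. In 2 pairs, both between the replicate 1 lists of the factors, the interval of the broad peaks included the share of all peaks.

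**Figure D3:**
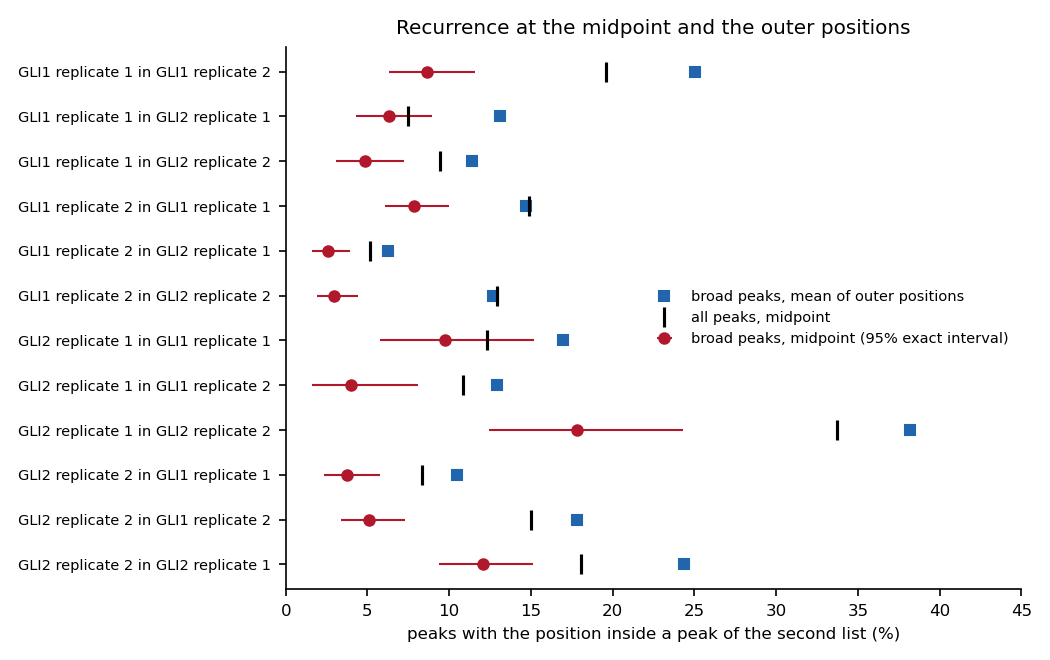
Share of peaks (%) whose midpoint or outer positions lie in a peak of a second list, for the 12 ordered pairs of lists. Circles are midpoints of broad peaks with 95% exact intervals, squares the mean of their outer positions and black ticks the midpoints of all peaks of the list; each circle lies left of its tick and its square.

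The peaks of other lists that overlapped broad peaks were mostly of ordinary width, though less often than peaks at large. A wide peak meets other peaks more easily, so this lower share is not read as a trait of broad peaks. Broad peaks of 3600 to 4400 bp overlapped 1354 peaks over the 12 ordered pairs of lists. Of these, 1133 (83.7%) were at most 1800 bp wide, against 94.7 to 96.7% of all peaks of a list at 1000 to 1800 bp. A total of 141 (10.4%) were centred within 600 bp of the centre of the broad peak. Their median width was 1400 or 1600 bp in each pair, and their median distance from the centre of the broad peak was 1100 or 1200 bp. Within 600 bp of the centre lay 13.4 to 21.5% of the overlapping peaks from the same factor and 0 to 16.7% of those from the other factor. Of 1308 meetings of a broad peak with another list, 1262 involved 1 peak of that list and 46 involved 2 or more. Where exactly 2 peaks of a list lay under a broad peak, in 46 cases, their centres were a median of 2700 bp apart (quartiles 2500 and 2900) and the gap between them was a median of 1400 bp. No gap within a list was under 1200 bp, and both peaks had to overlap 1 peak of at most 4400 bp. These distances were thus bounded in advance. 

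Taken by position and with the other 3 lists joined, 612 of the 1620 broad peaks of 3600 to 4400 bp (37.8%) were covered at 1 outer position and not at the midpoint. Another 111 (6.85%) were covered at both outer positions and not at the midpoint, and 123 (7.59%) at all 3 positions. The midpoint alone was covered in 9 (0.556%), and 712 (43.95%) met no peak of any other list, against 66% of all peaks, a share that wider peaks can lower by their width alone. The share without any overlap was 41.6% in GLI1 replicate 1, 55.3% in GLI1 replicate 2, 27.7% in GLI2 replicate 1 and 36.5% in GLI2 replicate 2. Peaks of 4600 to 6000 bp were fewer, 269 over the 4 lists, and carried 3 shallow highs when the lists were pooled. Of these, 71 (26.4%) were covered 1800 bp to the left of the centre, 57 (21.2%) 200 bp to the left of it and 66 (24.5%) 1800 bp to the right, with 51 (18.96%) and 41 (15.2%) at 1000 bp to the left and right. These highs and lows differ by few peaks, and 146 of the 269 came from GLI1 replicate 2. Cover at the centre exceeded that at 1000 bp to either side in both replicate 2 lists and in neither replicate 1 list.

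At the threshold of 3600 bp, most regions were broad in a single list. Of the 1866 broad regions, 1815 (97.3%) held a broad peak of a single list, 43 of 2 lists, 3 of 3 lists and 5 of all 4. Both GLI1 lists had a broad peak in 22 regions and both GLI2 lists in 23. Across factors the count was 10 for the replicate 1 lists, 13 for the replicate 2 lists, 8 for GLI1 replicate 1 with GLI2 replicate 2 and 6 for GLI1 replicate 2 with GLI2 replicate 1. As a share of each list, 4.86% of GLI1 replicate 1 and 3.35% of GLI1 replicate 2 broad peaks met a broad peak of the other replicate, and 13.2% of GLI2 replicate 1 and 6.21% of GLI2 replicate 2. A peak of any width of that replicate met 44.2, 29.4, 60.3 and 41.8% in this order. Broad peaks were only 1.16, 1.47, 0.686 and 1.15% of all peaks of these lists, so the 97.3% is not read as a result about the broad regions. A partner just under 3600 bp also counted as not broad. In 45 cases a broad peak of at most 4400 bp met 1 such peak of another list. Then both edges agreed within 400 bp in 36 of 45, and the median difference of an edge was 200 bp, the step of the grid.

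A peak of any width was found in a single list for 851 broad regions (45.6%), in 2 lists for 680 (36.4%), in 3 for 246 (13.2%) and in all 4 for 89 (4.77%, 95% exact interval 3.85 to 5.84). Among all autosomal regions 80.9% had a peak in 1 list, 16.1% had a peak in 2 lists, 2.55% in 3 and 0.437% in 4. Wider regions can meet more peaks, so these shares are not evidence that broad regions recur more. The midpoint shares above run the other way, but they were read where cover of broad peaks was low. When a list had to cover at least 50% of a region, only 7 broad regions had all 4 lists. GLI1 replicate 2 alone contributed 422 of the 851 regions seen in 1 list, GLI2 replicate 2 contributed 197, GLI1 replicate 1 187 and GLI2 replicate 1 45. The lists stood in the same order among the 108853 peaks of any width that met no other list, with 37661, 29839, 27909 and 13444. The order is thus not particular to broad regions. Among broad regions of 2 lists, 247 had both GLI1 lists, 162 both GLI2 lists, 150 both replicate 2 lists and 49 both replicate 1 lists. This split was not computed for regions of any width.

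**Figure D4:**
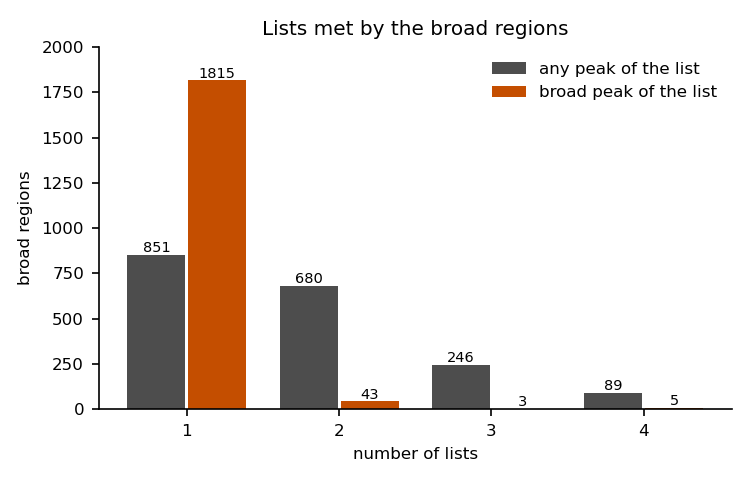
Number of the 1866 broad regions by the number of lists that have any peak there (grey) or a broad peak there (orange). A broad peak of a single list accounts for 1815 regions, while peaks of any width occur in 2 lists at 680 regions, in 3 at 246 and in 4 at 89.

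Of the 8 regions with the widest peaks, 4 held a broad peak in all 4 lists, 1 in both replicate 1 lists and 3 in GLI1 replicate 2 alone. A domain of chromosome 11 held the widest ones, from 19826001 to 19931000 (105 kb) and from 19758401 to 19819200 (60.8 kb). In the first, GLI2 replicate 1 covered 98.1% of bases with 2 peaks and GLI1 replicate 1 85.0% with 8, of which 6 were broad. GLI2 replicate 2 covered 51.8% with 14 peaks, 7 of them broad, and GLI1 replicate 2 25.7% with 12 peaks, 2 of them broad. In the second, coverage was 100.0% by 1 peak in GLI2 replicate 1, 76.0% by 4 in GLI1 replicate 1, 55.6% by 9 in GLI2 replicate 2 and 24.7% by 9 in GLI1 replicate 2. Cover was thus higher in replicate 1 than in replicate 2 for both factors, and higher for GLI2 than for GLI1 within each replicate number. The setting s differed between the replicates, and its part in this order was not tested.

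**Figure D5:**
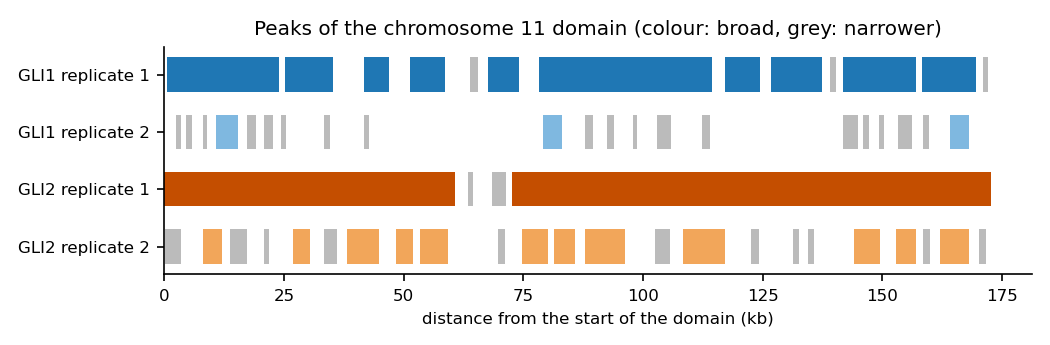
Peaks of the 4 lists along the chromosome 11 domain, in kb from its start, with broad peaks in colour and narrower ones in grey. The replicate 1 lists fill most of the domain with few wide peaks, and the replicate 2 lists show it as 9 to 14 peaks in each of its regions.

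Beside this domain, 3 regions held a broad peak in all 4 lists. On chromosome 9 from 2999401 to 3011400 the widest peak measured 12000 bp in GLI1 replicate 1 and 11800 bp in each of the other 3 lists, so the edges nearly coincided. The neighbouring region of chromosome 9 from 3014401 to 3039000 was a single peak of 24600 bp in 3 lists, and in GLI1 replicate 2 it was 4 broad peaks of up to 6800 bp that covered 78.05%. On chromosome 2 from 98501601 to 98510200 the widths were 6600 bp in both replicate 1 lists, 6200 bp in GLI1 replicate 2 and 8600 bp in GLI2 replicate 2. On chromosome 5 from 136381001 to 136398600 all 4 lists had peaks, but broad ones only in replicate 1. There GLI2 replicate 1 had 1 peak of 17600 bp, GLI1 replicate 1 had 2 peaks of up to 5600 bp, and the widest peak in each replicate 2 list was 3400 bp. On chromosome 4 from 139812401 to 139817000 the widths were 4000 bp, 2800 bp, 4400 bp and 3600 bp in GLI1 replicates 1 and 2 and GLI2 replicates 1 and 2. On chromosome 2 from 33943001 to 33947200 the replicate 2 lists had a peak of 4200 bp each, and replicate 1 had 2000 bp for GLI1 and 2200 bp for GLI2. That region was therefore broad in replicate 2 only, for both factors. Input reads were not analysed here, so enrichment at these places was not compared with input.

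Some very wide regions lay where the peaks of a chromosome begin, most of them with a broad peak of GLI1 replicate 2. On chromosome 17, GLI1 replicate 2 had a peak of 17000 bp from 3006001 to 3023000, where the other 3 lists had none, and one of 15400 bp from 3026401 to 3041800, where GLI2 replicate 2 had a single peak of 1000 bp. Within 100 kb of the first peak of a chromosome, GLI1 replicate 2 had 12 broad peaks on 4 chromosomes (1.55% of its broad peaks, against 0.110% of all its peaks). GLI1 replicate 1 had 2 there (0.423% against 0.0468%), GLI2 replicate 1 had 3 (1.72% against 0.0591%) and GLI2 replicate 2 had 4 (0.753% against 0.121%). These places came to 11 broad regions on 5 chromosomes, of which 9 had a broad peak of GLI1 replicate 2 and 5 no peak of any other list. Both chromosome 9 regions named above, broad in all 4 lists, were among these 11. Of the 23 broad regions of at least 7000 bp, 8 lay within this distance. A different wide region, on chromosome 19 from 6379201 to 6390800, was 11600 bp in GLI1 replicate 2, 3400 bp in GLI2 replicate 1 and 1400 bp in both other lists. Repeats and mappability of these places were not analysed here.

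Regions broad in both replicates of 1 factor and without a peak of the other numbered 11 of 22 for GLI1 and 9 of 23 for GLI2. Those of GLI1 whose narrower peak was widest lay on chromosome 4 from 124144601 to 124150200 (5000 and 5600 bp in replicates 1 and 2), chromosome 11 from 98950001 to 98954400 (4400 and 4200 bp), chromosome 1 from 127439801 to 127443800 and chromosome 5 from 136560001 to 136564000 (4000 and 3800 bp each). Their replicate 1 scores were 42.4, 78.8, 53.1 and 47.0. Those of GLI2 lay on chromosome 4 from 132057201 to 132061200 (4000 bp in both replicates), chromosome 7 from 87699401 to 87703400 and chromosome 12 from 11716001 to 11719800 (3800 bp in both), and chromosome 12 from 12781201 to 12786400 (3800 and 4600 bp). Their replicate 1 scores were 86.5, 70.7, 73.9 and 96.1. Of the 22 regions broad in both GLI1 lists, 7 had a peak in both GLI2 lists. Of the 23 broad in both GLI2 lists, 11 had a peak in both GLI1 lists. How often regions of any width lack the other factor was not computed, so these counts are not read as a trait of broad regions. The cutoff was looser for GLI1 than for GLI2, and most peaks did not recur, so a missing peak does not show missing binding.

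The deposited score, for which the sources used here state no unit, was somewhat higher for broad peaks than for ordinary ones. In GLI1 replicate 1 the median was 52.2 (quartiles 47.2 and 59.4) for broad peaks and 46.6 (42.9 and 52.6) for ordinary peaks. In GLI2 replicate 1 it was 67.8 (61.2 and 76.2) and 58.5 (53.7 and 64.4). The quartile ranges overlapped in both lists. Medians were 59.9 and 73.2 for peaks of 2000 to 2800 bp, above those of broad peaks, and 49.7 and 60.9 for peaks of 3000 to 3400 bp, below them. The lowest score over all widths was 40.0 in GLI1 replicate 1 and 50.0 in GLI2 replicate 1. Scores of replicate 2 were nearly all 0 and were not used. Score and width come from the same peak call, so no test is given.

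Outside the broad peaks themselves, the surrounding sequence held somewhat more peaks than around narrow ones. In the 10 kb to each side of broad peaks, the other lists covered 2.53 to 4.79% of bases, against 1.58 to 3.31% beside peaks of at most 1200 bp, with a higher value beside broad peaks in 12 of 12 ordered pairs of lists. The ratio, averaged over the other 3 lists, was 1.57 for GLI1 replicate 1, 1.44 for GLI1 replicate 2, 1.38 for GLI2 replicate 1 and 1.71 for GLI2 replicate 2, a mean of 1.52 ± 0.144 (SD, n = 4 lists). Without the chromosome 11 domain it was 1.21 ± 0.149. Of the broad regions, 410 (22.0%) lay within 100 kb of another, and the median distance to the nearest was 353 kb. No such share was computed for other regions, so whether broad regions cluster was not tested. The fullest group, of regions each within 100 kb of the next, held 6 regions on chromosome 17 from 27204401 to 27431000, with 6 broad peaks of GLI1 replicate 2, 2 of GLI2 replicate 2 and 0 of either replicate 1 list. Without GLI1 replicate 2, 154 of 1125 broad regions lay within 100 kb of another, and without GLI2 replicate 2, 261 of 1376.

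Autosomes differed in how many broad regions they carried. Density ran from 0.347 per Mb on chromosome 9 to 1.12 per Mb on chromosome 12, with a median of 0.787. Relative to its share of all peaks, a chromosome held 0.659 times (chromosome 9) to 1.30 times (chromosome 17) its share of broad regions. On chromosome 9 broad peaks were 0.668% of GLI1 replicate 1 peaks, 1.27% of GLI1 replicate 2, 0.678% of GLI2 replicate 1 and 0.642% of GLI2 replicate 2. On chromosome 17 the shares were 1.72, 2.08, 0.826 and 1.21% in that order. Chromosome 17 was above chromosome 9 in each of the 4 lists, and these chromosomes were chosen as the extremes.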

How the data were processed

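The 4 deposited peak lists of anti-FLAG ChIP libraries were analysed (GLI1 and GLI2, replicates 1 and 2). The inputs, of which replicate 1 carries an antibody label beside its title as input, were not analysed here. The submitters' processing notes name CASAVA 1.7, BWA and the build mm9. No source used here names the program that called peaks. Starts and ends lay on a 200 bp grid, and coordinates are printed counted from 1. The score is the authors' deposited value per peak. Peaks on the 19 autosomes were used, and each list was matched to its sample by title.

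Broad peaks, regions and lists were chosen with earlier results of these data known. Overlap means at least 1 bp. A midpoint is 1 position, so a wider peak has no more bases to meet there. Width still bears on midpoint recurrence, because it sets which part of a peak the midpoint reads. The outer positions are the centres of the end parts of a peak cut into 3. Intervals are exact (Clopper-Pearson, 95%), and tests are two-sided exact permutations over lists. Each list is read against the other lists, so list values and their SD do not come from independent samples. Regions named in the text were the 8 with the widest peak, the 8 in all 4 lists ranked by the narrowest of their 4 widest peaks, and up to 4 per factor that were broad in both its replicates and met no peak of the other factor, ranked by the narrower of these. The group of chromosome 17 and chromosomes 9, 12 and 17 were named after their values were seen. The planned look at genes and motifs was not run, since it needs mm9 annotation and sequence. Scripts were tested on simulated data. Python 3.11.15, numpy 2.4.6, pandas 2.3.3, scipy 1.17.1 and matplotlib 3.10.9 were used.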

Additional observations from a re-analysis of the deposited data

Results flagged for a closer look

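Broad peaks also occurred on chromosome X, outside the autosomes to which the broad regions were limited: 16 in GLI1 replicate 1, 36 in GLI1 replicate 2, 4 in GLI2 replicate 1 and 24 in GLI2 replicate 2. They are listed because each exceeds 3, the limit set by a count of 0. That is a low bar which any small number of peaks passes, and no list of control cells stands beside them. They were 0.796% (95% exact interval 0.456 to 1.29), 1.24% (0.868 to 1.71), 0.352% (0.0959 to 0.898) and 0.880% (0.564 to 1.31) of the X peaks of these lists in the same order. The widest measured 5200, 7200, 3800 and 5800 bp. Chromosome Y had 0 broad peaks among the 10 of GLI1 replicate 2 and the 6 of GLI2 replicate 2.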

How the results depend on the processing

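Of 86 alternative values, 57 met the rule for staying the same, which does not always mean close. Counts had to stay within a fixed fold of the reported count, and most other values within the reported SD. GLI1 minus GLI2 midpoint recurrence only had to keep its sign, which it did in all 12 alternatives. Widths of at least 3000 and 5000 bp gave 4506 and 206 broad regions, 147 and 18 of them with peaks in all 4 lists, 1789 and 19 within 100 kb of another and flank ratios of 1.31 and 4.71. At 5000 bp midpoint recurrence in the other replicate was 22.1% for GLI1 and 41.1% for GLI2, that in the other factor 25.8%, above the shares of all peaks (17.2 and 25.9% for the replicates), and midpoint minus outer positions turned to 1.17 points. The chromosome 11 domain was not left out of these values. Midpoint minus outer positions was otherwise -11.3 to -8.24 points (-11.3 to -8.29 with a list left out). Its alternatives, and leaving out broad peaks near the first peak of a chromosome, were chosen after seeing the data. Joining peaks within 1500 bp gave 3296 regions, 144 in all 4 lists and 6.82% for GLI1. Outer positions in place of midpoints gave 19.9% for GLI1, 31.3% for GLI2 and 12.7% in the other factor. Replicate 1 scores of at least 50 left 59 regions in all 4 lists and a flank ratio of 1.79. Without the chromosome 11 domain the ratio was 1.21. A cover of at least 50% left 7 regions in all 4 lists. Within 50 and 200 kb of another lay 233 and 660 regions. Leaving out a list gave 1125 (without GLI1 replicate 2) to 1727 regions, and 154 (without GLI1 replicate 2) to 369 within 100 kb of another, with 261 without GLI2 replicate 2. With peaks in all 3 remaining lists, a looser rule than 4 lists, there were 105 to 175 regions (145 without GLI1 replicate 1, 175 without GLI2 replicate 1). GLI1 minus GLI2 midpoint recurrence stayed negative in all 12 alternatives, from -19.1 to -3.78 points, the last without GLI2 replicate 1 as the list counted. With the replicate number as a block it was -6.66 (exact sign-flip permutation p = 0.5, the smallest with 2 pairs). The values of a factor come from the same lists read in both directions, so this test cannot decide the difference either. The causes of these moves were not tested. Depth is unknown, and its part in the recurrence was not tested.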
